A study of Mus musculus with 24 samples.

Results

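The response of the aged mouse lung to house-dust mite (HDM) was described from 12 of the 24 samples of the series. These were 7 samples of HDM-challenged and 5 of saline mice of 80 wk, and 17742 of 23891 genes were covered. The samples were taken by their labelled age and treatment. The genes were those with a mean of at least 1 in the deposited table of counts scaled to a common total per sample (CPM), after both genes of 7SL RNA had been left out. All 12 samples were of C57BL/6 mice, with no transgene or deletion named, and RNA came from the left lobe of the lung. The HDM group was sensitized through the nose with 50 µg of HDM in 40 µL on days 1, 3 and 5. Challenges followed on days 11 to 13, 18 to 20 and 25 to 27, and lungs were taken 24 h after the last dose. The saline group received no HDM, and the study also calls it naïve. Another 7 samples came from aged mice given the same HDM course with dexamethasone (Dex), a synthetic glucocorticoid. Dex was given into the peritoneum at 4 mg/kg every 72 h. Samples are numbered within a group, and the labels do not say that each number is a separate mouse, so that p-values measure the spread between these samples.

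HDM extract carries proteases and microbial products that act on the airway epithelium, which then releases alarmins such as IL-33 and TSLP. Type 2 lymphocytes answer with IL-4, IL-5 and IL-13. Through their shared receptor chain and the transcription factor STAT6, IL-4 and IL-13 turn airway secretory cells toward mucus production, call in eosinophils by way of eotaxins, and set macrophages on an alternative programme marked by arginase and chitinase-like proteins. In the airway wall and around vessels, long-lasting exposure is known to bring collagen deposition, while club and ciliated cells keep the airway surface and clear inhaled material.

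The promoters of 5 type 2 genes that rose after HDM are printed because they hold the palindrome of STAT6, TTCNNNNGAA, or its shorter form TTCNNNGAA, which several STAT factors bind. Each run is the 250 bases before the start site, 5′ to 3′ on the strand of the gene, from RefSeq on GRCm38.p6, with 1 form of the palindrome in capitals, the longer one in the first 3 genes and the shorter one in the other two.
Retnla, chr16:48842359-48842608, plus strand: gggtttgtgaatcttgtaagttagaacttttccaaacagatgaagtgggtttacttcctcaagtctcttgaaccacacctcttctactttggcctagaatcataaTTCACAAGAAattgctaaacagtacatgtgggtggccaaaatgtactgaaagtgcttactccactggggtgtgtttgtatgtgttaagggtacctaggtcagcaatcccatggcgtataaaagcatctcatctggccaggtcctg
Ccl17, chr8:94810203-94810452, plus strand: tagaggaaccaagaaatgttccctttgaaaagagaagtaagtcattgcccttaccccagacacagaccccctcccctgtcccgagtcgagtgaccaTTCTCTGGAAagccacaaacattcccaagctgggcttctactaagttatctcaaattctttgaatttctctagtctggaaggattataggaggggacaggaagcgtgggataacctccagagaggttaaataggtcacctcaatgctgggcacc
Pdcd1lg2, chr19:29410669-29410918, plus strand: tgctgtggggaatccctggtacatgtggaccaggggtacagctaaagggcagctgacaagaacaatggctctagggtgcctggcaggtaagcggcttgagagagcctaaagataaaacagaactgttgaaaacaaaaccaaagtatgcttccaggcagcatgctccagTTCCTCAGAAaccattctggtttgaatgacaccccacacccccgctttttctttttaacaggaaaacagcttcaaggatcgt
Chil3, chr3:106167565-106167814, minus strand: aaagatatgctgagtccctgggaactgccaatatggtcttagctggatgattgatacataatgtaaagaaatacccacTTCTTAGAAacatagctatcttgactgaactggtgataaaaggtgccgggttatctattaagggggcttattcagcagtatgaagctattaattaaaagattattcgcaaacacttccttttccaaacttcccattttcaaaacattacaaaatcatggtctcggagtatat
Chil4, chr3:106219480-106219729, minus strand: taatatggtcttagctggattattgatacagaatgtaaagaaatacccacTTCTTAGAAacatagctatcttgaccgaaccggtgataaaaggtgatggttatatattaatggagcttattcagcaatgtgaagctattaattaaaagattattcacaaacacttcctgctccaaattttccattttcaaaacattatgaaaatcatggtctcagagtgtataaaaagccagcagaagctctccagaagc
Retnla, Ccl17 and Pdcd1lg2 held the longer palindrome, beginning 145, 154 and 82 bases before the start. Ccl17 held the shorter one as well, as ttctttgaa in lower case. Chil3 and Chil4, neighbouring genes of chitinase-like proteins, held TTCTTAGAA at 172 and 200 bases before the start. Both palindromes read the same on either strand. The search covered windows from 250 bases before to 50 after each start, and 16 of the 24 genes on the type 2 list had such a window. Of the 13 that were also tested for expression, 3 held the longer palindrome, and 3 held the shorter one. The longer form was in 8.01% of all 27025 genes with a window and in 6.61% of the tested genes. Among genes that rose by a log2 fold change of at least 2, it was in 9 of 51 genes (17.6%), and among those that fell as far, in 0 of 31. The shorter form was in 9.55% of all genes and 8.30% of the tested ones, in 8 of the 51 and in 3 of the 31. These counts describe letters in a window, not binding.

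Low values are spaced by what 1 read is worth, which gave an estimate of depth. It ran from 14.3 to 28.3 M in saline and from 10.1 to 33.1 M in HDM samples. In CPM as deposited, 3 reads were worth 0.0906 to 0.298. The 7SL RNA, the RNA part of the signal recognition particle, took 9.92% to 18.1% of the CPM in saline and 15% to 34.0% in HDM samples. Its mean share was 13.3 percentage points higher after HDM (exact permutation test, two-sided, p = 0.00631, adjusted p = 0.0202 over 8 sample measures). Since this leaves less of the total for all other genes, the CPM were recomputed without both 7SL genes, and all levels below are 7SL-free CPM. On this scale each read is worth more than in CPM as deposited. By Xist and Ddx3y, 2 of 5 saline and 2 of 7 HDM samples were female. The HDM females had 7SL shares of 15% and 15.4%, and the 5 HDM males 27.1% to 34.0%, so that within the HDM group sex and 7SL share cannot be told apart. HDM replicate 2, a male, stood apart with the lowest Arg1 and Retnla and the highest Myh6 of the HDM group. The surfactant gene Sftpc (2128 to 7258 7SL-free CPM) and the alveolar type 1 gene Ager (463 to 996 7SL-free CPM) marked all 12 samples as lung.

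After HDM, 1831 genes were higher and 2016 lower, with an adjusted p under 0.05 (limma with the Benjamini-Hochberg method over 17742 genes). These 3847 genes were 21.7% of those tested (10.3% higher and 11.4% lower), and every list below is read against these shares. The log2 fold change reached at least 1 for 449 of the higher and 545 of the lower genes, and at least 2 for 86 and 40. The median over all genes was −0.02. In CPM as deposited, with 7SL kept in, the median was −0.23, and 718 genes were higher and 3771 lower. Without saline replicate 1 the number called was 2515. With the 7SL share as a covariate 1044 genes were higher and 358 lower. With only the 2 HDM samples of a 7SL share below 25%, 614 were higher and 196 lower, and in male samples alone 1102 and 1429. List counts under these settings are read against these numbers, all out of 17742 genes. For 1313 genes (7.40%) the values of the HDM and saline samples did not overlap, with 608 higher (3.43%) and 705 lower (3.97%) after HDM. In bulk tissue, fewer cells of a type and less RNA per cell cannot be told apart. The genes next to the filter had a mean of 0.999 (Gm37977, not tested) and 1.0004 deposited CPM (Gm12846, tested). Of the tested genes, 164 had a saline mean under 1, of which 71 were called higher.

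**Figure D1:**
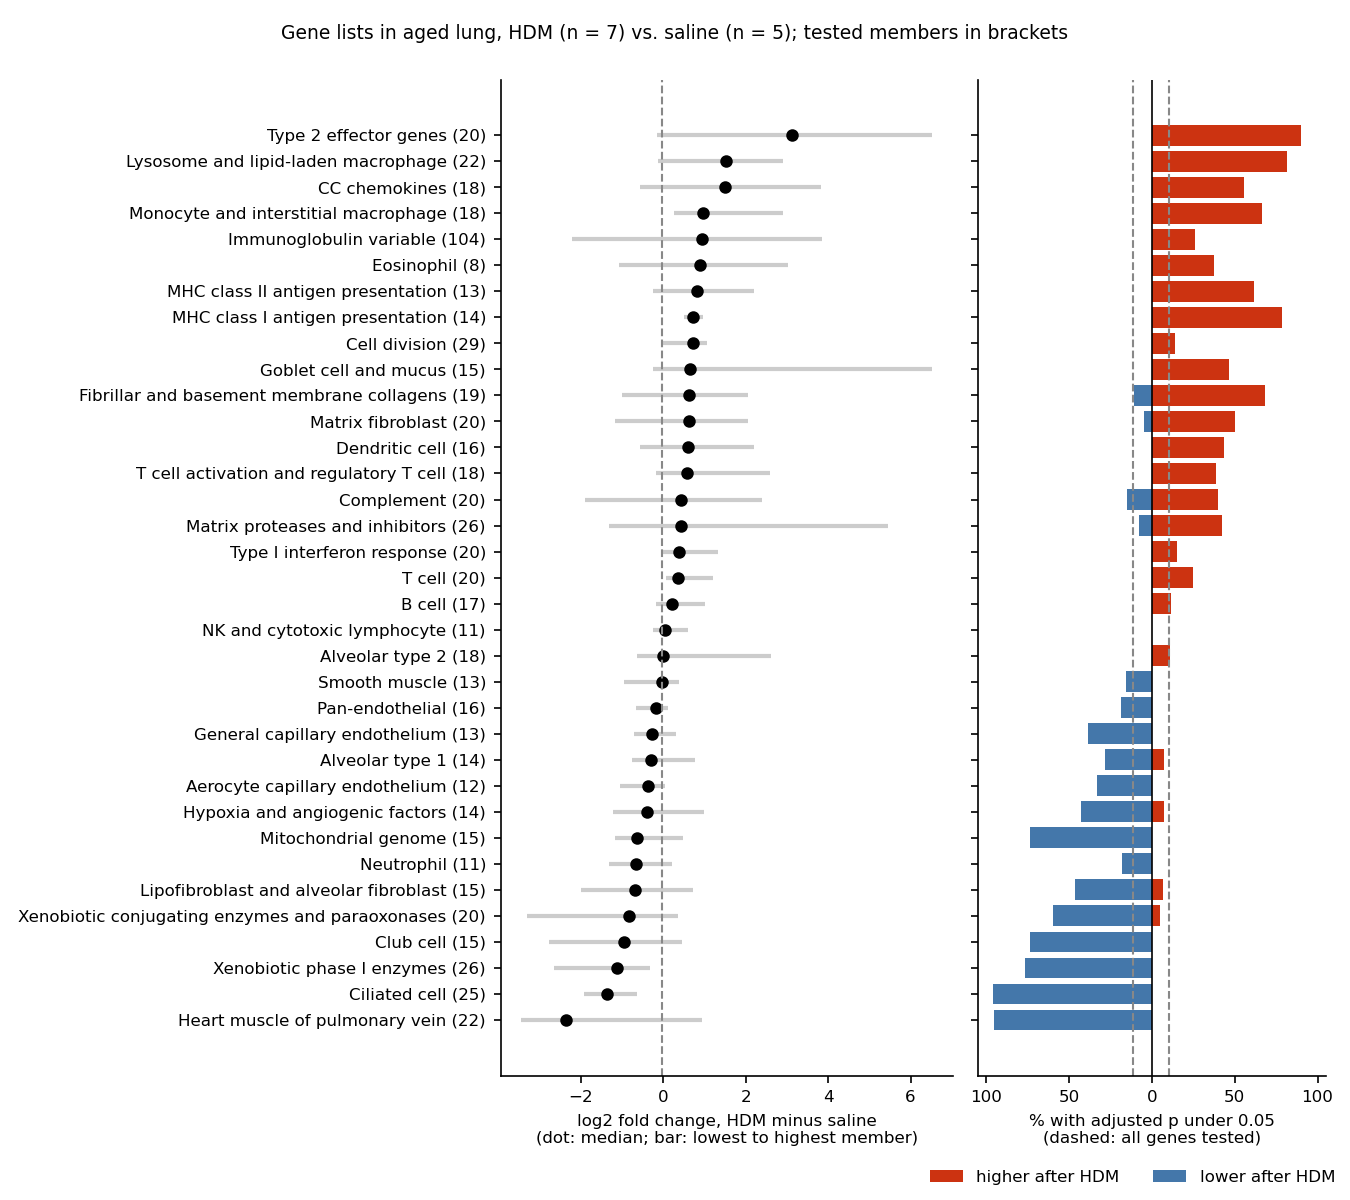
Gene lists in HDM (n = 7) vs. saline (n = 5) samples. On the left, dots are the median and bars the lowest to highest log2 fold change of the tested members. On the right, bars give the percent of members with an adjusted p under 0.05, and dashed lines the same for all genes tested. The type 2 list (median 3.12) and the heart muscle list (median −2.36) lie at the ends.

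Type 2 effector genes rose furthest of the lists. Of 24 genes on the list, 20 were tested and 18 were higher after HDM (90.0%, against 10.3% of all genes), with a median log2 fold change of 3.12. Postn (log2 fold change −0.15), a matricellular protein, and Tff2 (1.08), a mucosal peptide, did not pass. In 12 of the 20 every HDM value was above every saline value, against 3.43% of all genes. The list was drawn up with earlier results of these data known, so its rank among the lists is not a test. It shares genes with other lists, such as Slc26a4 and Fcgbp with the goblet cell list and Chil3 and Mrc1 with the alveolar macrophage list. With the CC chemokine list it shares Ccl8, among others.

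Clca1, a secreted protein of goblet cells that shapes mucus, was at 0.172 to 1.29 CPM in the 5 saline samples and at 19.4, 185 and 448 CPM (lowest, median and highest) in HDM samples. Its log2 fold change was 6.52 ± 0.81 (SE, adjusted p = 9.35e-05). Every HDM sample was above every saline sample. Slc26a4, the anion exchanger pendrin, rose by 4.51 ± 0.51 (adjusted p = 4.60e-05) from 2.39 to 7.41 CPM in saline to a median of 145 CPM. Muc5ac, the mucin of goblet cells, rose by 3.21 ± 0.77 (adjusted p = 0.00578), with 1 HDM sample, at 5.88 CPM, inside the saline range of 3.22 to 10.6. Fcgbp, which crosslinks mucus, rose by 3.33 ± 0.73 (adjusted p = 0.00354). Pigr, the receptor that carries IgA into the airway lumen, was at 66.5 to 90.4 CPM in saline and at 342, 558 and 1377 CPM after HDM. It rose by 3.05 ± 0.41 (adjusted p = 0.000181) without overlap. Muc5b, the other main airway mucin, had a log2 fold change of −0.14 ± 0.48 (adjusted p = 0.869), with 138 to 382 CPM in saline and 33.1 to 549 in HDM samples. Spdef, a transcription factor of goblet cells, was at 0.549 to 1.71 and 0.375 to 4.13 CPM (adjusted p = 0.536). Of the goblet cell and mucus list, 7 of 15 tested genes were higher and 0 lower, with a median of 0.66.

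Genes used as markers of alternative activation of macrophages were among the largest rises. Which cells of the bulk tissue held their RNA was not measured. Retnla, a secreted resistin-like protein, was at 3.2, 5.50, 6.60, 7.69 and 11.6 CPM in saline and at 87.1, 806 and 1120 CPM after HDM. It rose by 6.00 ± 0.70 (adjusted p = 5.47e-05). Arg1, which splits arginine into ornithine and urea, was at 1.11 to 1.92 CPM in saline and at 6.94, 279 and 782 CPM after HDM, and rose by 5.62 ± 1.05 (adjusted p = 0.00119). Both genes were higher in every HDM sample than in any saline sample, and the lowest HDM value of each was that of replicate 2. Chil3, a chitinase-like protein, was already at 113 to 172 CPM in saline and rose by 3.26 ± 0.48 (adjusted p = 0.000282) to a median of 1918 CPM. Chil4 rose by 4.00 ± 0.76 (adjusted p = 0.00137) from 0 to 0.613 CPM in saline to a median of 16.3 CPM. Alox15, a lipoxygenase of macrophages and eosinophils, rose by 3.03 ± 0.74 (adjusted p = 0.00619). Pdcd1lg2, a ligand of PD-1 that was named after its values were seen, rose by 2.80 ± 0.48 (adjusted p = 0.000732).

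Of the cytokines that drive this response, Il13, Il5, Il17a and Ifng were below the filter and were not tested, and Il4 was not analysed here. Il13 was above 0 in 7 of 7 HDM samples, up to 0.521 CPM, and in 2 of 5 saline samples, up to 0.0785 CPM. Il17a was above 0 in 5 of 7 HDM samples, up to 3.31 CPM, and at 0 in every saline sample. Il5 reached 1.13 CPM in HDM and 1.18 CPM in saline samples. Among the receptors and alarmins, Il1rl1, the receptor of IL-33, rose by 1.58 ± 0.31 (adjusted p = 0.00188). Il33 itself rose by 1.16 ± 0.36 (adjusted p = 0.0243). Crlf2, the TSLP receptor, was at 7.94 to 15.3 CPM in saline and 21.3 to 42.9 CPM after HDM and rose by 1.47 ± 0.22 (adjusted p = 0.000293). Il4ra, the receptor chain shared by IL-4 and IL-13, rose by 0.44 ± 0.15 (adjusted p = 0.0446). Gata3, the transcription factor of type 2 lymphocytes, rose by 0.48 ± 0.13 (adjusted p = 0.0146), and its groups did not overlap. Of the list of type 2 lymphocytes (Th2 and ILC2), which holds Gata3 and Il1rl1, 2 of 6 tested genes were higher and 1 lower, with a median of −0.01. The lower gene was Rora, a nuclear receptor needed by ILC2, with a log2 fold change of −0.50 (adjusted p = 0.00339). The summed level of this list was 125 to 149.5 CPM in saline and 112 to 132 CPM in HDM samples. With the 7SL share as a covariate, 6 of the 20 type 2 effector genes were higher, and 6 were with only the 2 HDM samples of low 7SL share. The medians of that list were then 1.68 and 1.73. In the male samples alone 16 of the 20 were higher, and without HDM replicate 2 18 were.

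**Figure D2:**
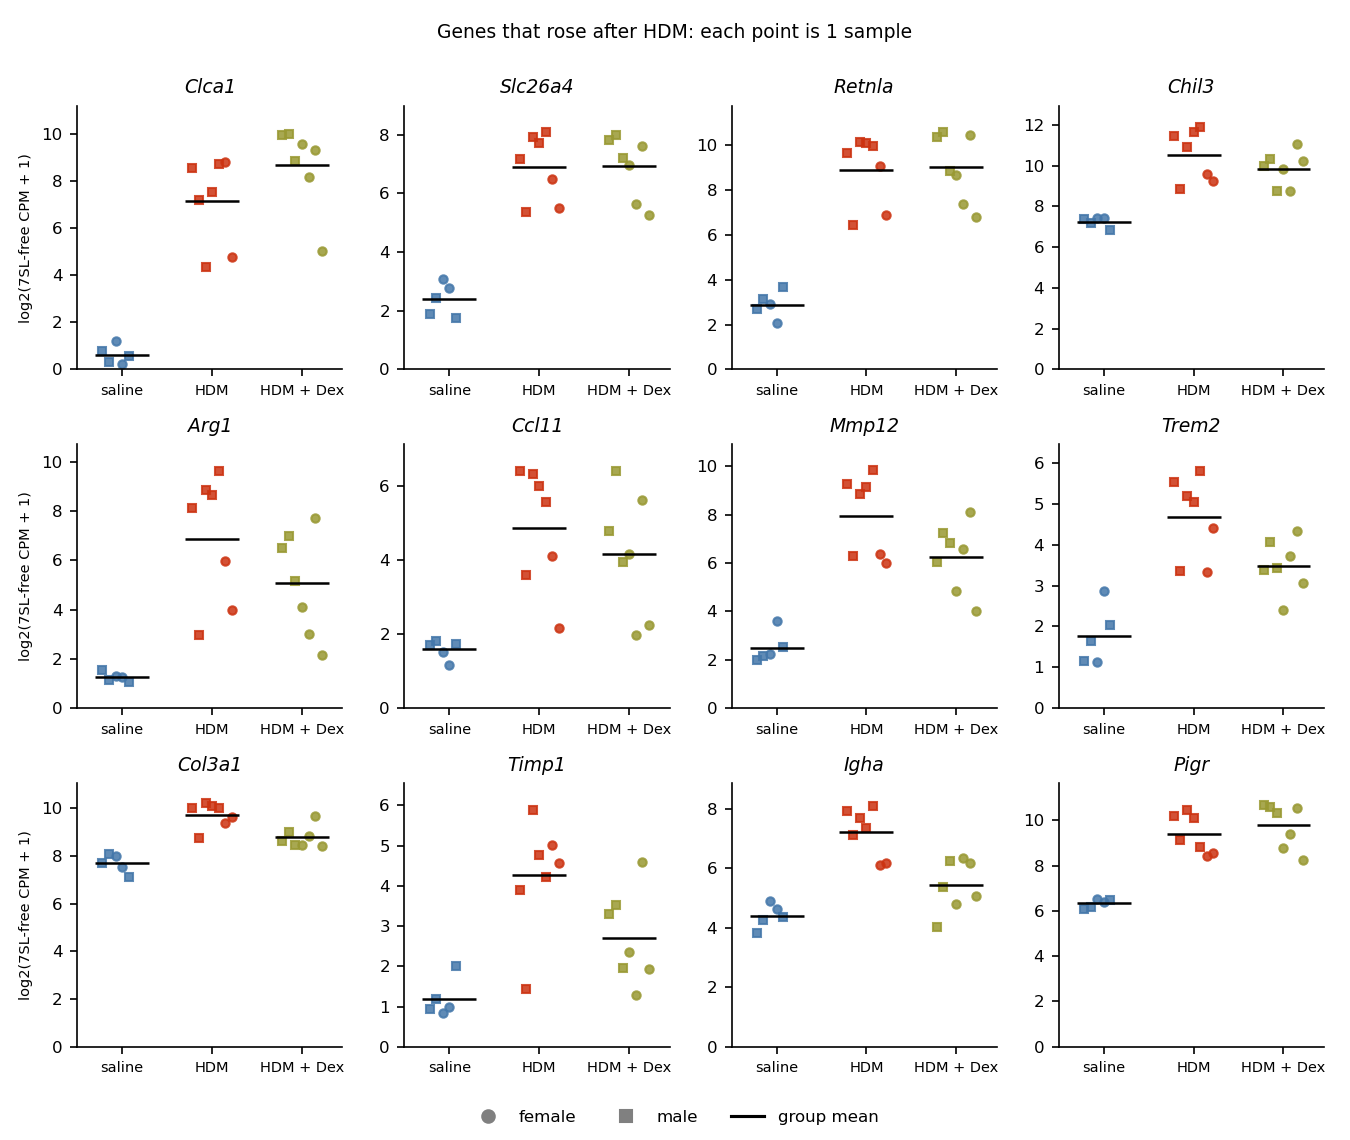
Levels of 12 genes that rose after HDM in saline (n = 5), HDM (n = 7) and HDM + Dex (n = 7) samples, as log2 of the 7SL-free CPM plus 1. Points are samples, circles female and squares male, and lines are group means. For Clca1 the saline samples lie at 0.172 to 1.29 CPM and the HDM samples at 19.4 CPM or more, while for Timp1 1 HDM sample lies inside the saline range.

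Of the CC chemokine list, 10 of 18 tested genes were higher and 0 lower, and the median log2 fold change was 1.50. Ccl11, eotaxin, which draws eosinophils, was at 1.26 to 2.48 CPM in saline and at 3.48, 46.2 and 82.6 CPM after HDM. It rose by 3.28 ± 0.73 (adjusted p = 0.0036) without overlap. Ccl24, another eotaxin, rose by 3.82 ± 1.13 (adjusted p = 0.0201), but HDM replicates 2 and 7, at 0.188 and 0.249 CPM, lay inside the saline range of 0.111 to 0.342 CPM. Ccl9, which draws dendritic cells and other myeloid cells, rose by 2.98 ± 0.45 (adjusted p = 0.000378), and Ccl8, a ligand of receptors on type 2 cells and monocytes, by 2.86 ± 0.81 (adjusted p = 0.0157). Ccl5, a chemokine of cytotoxic lymphocytes, was at 5.72 to 19 CPM in saline and 6.94 to 23.9 CPM in HDM samples (log2 fold change 0.04, adjusted p = 0.949). The eosinophil list had 3 of 8 tested genes higher, among them Alox15, already given above with the macrophage genes. Epx and Prg3 of this list were not analysed here, and Ear6 and Cebpe were below the filter. Ccr3, the eotaxin receptor, rose by 1.69 ± 0.57 (adjusted p = 0.0391) from levels of at most 0.863 CPM, whereas Siglecf, which eosinophils share with alveolar macrophages, had a log2 fold change of 0.07 (adjusted p = 0.907).

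Of the monocyte and interstitial macrophage list 12 of 18 tested genes were higher and 0 lower (median log2 fold change 0.96), and of the lysosome and lipid-laden macrophage list 18 of 22 were higher and 0 lower (median 1.52). Trem2, a lipid-sensing receptor of macrophages, was at 1.18, 1.22, 2.14, 3.11 and 6.23 CPM in saline and at 9.07, 31.8 and 55.2 CPM after HDM. It rose by 2.91 ± 0.42 (adjusted p = 0.000272) without overlap. Trem2 is on both lists, so that their counts are not separate results. Mmp12, the elastase of macrophages, was at 2.94 to 11.2 CPM in saline and at 62.4, 459 and 905 CPM after HDM, and rose by 5.46 ± 0.70 (adjusted p = 0.000105). C1qb, a chain of complement C1q, rose by 2.07 ± 0.36 (adjusted p = 0.000774). Gpnmb, a membrane glycoprotein of lysosome-rich macrophages, rose by 2.39 ± 0.42 (adjusted p = 0.000774). Ctsk and Ctss, lysosomal cathepsins, rose by 2.58 ± 0.42 (adjusted p = 0.000606) and 2.20 ± 0.33 (adjusted p = 0.000323). The lysosomal membrane genes Lamp1 and Lamp2 were named after their values were seen, and had log2 fold changes of 0.10 and 0.00 without passing.

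Resident alveolar macrophage genes went in different directions. Of this list, 5 of 15 tested genes were higher and 1 lower, and the median log2 fold change was 0.26. Atp6v0d2, a proton pump subunit, and Olr1, a scavenger receptor, rose by 1.77 ± 0.33 (adjusted p = 0.00113) and 1.60 ± 0.33 (adjusted p = 0.00221). Cidec, a lipid droplet protein, fell by 1.86 ± 0.42 on the log2 scale (adjusted p = 0.00413). Fat cells express Cidec too, and of the adipocyte list 3 of 5 tested genes, Adipoq, Cfd and Plin1, were lower and 1 higher. The summed level of that list was 34.5 to 49.9 CPM in saline and 24.1 to 39.3 CPM in HDM samples, and its part in the Cidec value was not tested. Marco, a scavenger receptor that defines these cells, was at 4.63 to 16.9 CPM in saline and at 0.824, 3.31 and 61.8 CPM in HDM samples (adjusted p = 0.47). Its mean was 2.27 CPM in the 5 HDM males and 35.0 CPM in the 2 HDM females. Adding the 7SL share as a covariate gave 13 monocyte and interstitial macrophage genes and 16 lysosome genes higher, and with only the 2 HDM samples of low 7SL share there were 8 and 9.

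Antigen presentation genes were higher on both arms. Of the MHC class II list 8 of 13 tested genes rose (median log2 fold change 0.81), and of the class I list 11 of 14 (median 0.73). H2-Ab1, a class II chain, was at 296 to 516 CPM in saline and at 561, 803 and 972 CPM after HDM. It rose by 1.03 ± 0.24 (adjusted p = 0.00545) without overlap. Ciita, the activator of class II genes, rose by 0.81 ± 0.23 (adjusted p = 0.0165). Among class I genes H2-K1 rose by 0.97 ± 0.20 (adjusted p = 0.00232), and Tap1, which pumps peptides for loading, by 0.98 ± 0.24 (adjusted p = 0.00716). Of the dendritic cell list 7 of 16 tested genes were higher and 0 lower. Itgax, the integrin CD11c, was at 26.2 to 59.2 CPM in saline and at 72.3, 208 and 282 CPM after HDM and rose by 2.12 ± 0.31 (adjusted p = 0.000272). Batf3, a transcription factor of cross-presenting dendritic cells, rose by 2.21 ± 0.35 (adjusted p = 0.000523), and Fscn1, which bundles actin in migrating dendritic cells, by 1.42 ± 0.31 (adjusted p = 0.00341). In male samples alone 5 genes of each MHC list were higher, and in CPM as deposited 4 of each were.

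In the complement list 8 of 20 tested genes were higher and 3 lower. C3, the central component, was at 598 to 899 CPM in saline and at 1059, 3418 and 3812 CPM after HDM and rose by 1.95 ± 0.32 (adjusted p = 0.000651). C3ar1, the receptor of its fragment C3a, rose by 2.39 ± 0.29 (adjusted p = 6.04e-05). Cfd, the factor D that fat cells secrete, fell by 1.91 on the log2 scale. Saa3, an acute phase protein, rose by 4.18 ± 0.78 (adjusted p = 0.00121), with a mean of 24.9 CPM in HDM males and 99.9 CPM in HDM females. Lcn2, an iron-withholding protein of stressed epithelium, was at 37.3 to 191 CPM in saline and 201 to 843 CPM after HDM and rose by 2.75 ± 0.39 (adjusted p = 0.000224).

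Of the T cell list 5 of 20 tested genes were higher and 0 lower, and the median log2 fold change was 0.37. Cd4, the coreceptor of helper T cells, was at 5.77 to 17.8 CPM in saline and at 10.2 to 30.7 CPM in HDM samples (log2 fold change 0.80 ± 0.40, adjusted p = 0.154). Cd6, a T cell surface receptor, rose by 1.21 ± 0.30 (adjusted p = 0.00706) without overlap. Of the activated and regulatory T cell list 7 of 18 were higher. Tnfrsf9, the costimulatory receptor 4-1BB, was at 0.707 to 2.04 CPM in saline and at 3.19, 15.1 and 27.4 CPM after HDM and rose by 2.59 ± 0.42 (adjusted p = 0.000553). Pdcd1, the inhibitory receptor PD-1, rose by 1.10 ± 0.31 (adjusted p = 0.0149), and Icos, a costimulatory receptor, by 1.02 ± 0.32 (adjusted p = 0.0281). Foxp3, which defines regulatory T cells, had a log2 fold change of 0.44 ± 0.22 (adjusted p = 0.153).

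Of the B cell list 2 of 17 tested genes were higher (11.8%), near the 10.3% of all genes. Fcer2a, the low-affinity IgE receptor, was among them, with a rise of 1.02 ± 0.33 (adjusted p = 0.0329). Of the 12 immunoglobulin constant genes tested 3 were higher and 0 lower, 6 had a negative log2 fold change, and the median was 0.00. The summed level of this list was 1050.0 to 6521 CPM in saline, with a median of 6078, and 2028 to 8371 CPM in HDM samples, with a median of 2700.0. Ighm, of IgM, had a log2 fold change of −0.46 (adjusted p = 0.651). The 3 that rose were Igha, Ighe and Ighg1. Igha, the constant region of IgA, was at 13.1 to 28.8 CPM in saline and at 69.1, 164 and 274 CPM after HDM, without overlap, and rose by 2.82 ± 0.39 (adjusted p = 0.000184). Ighe, the constant region of IgE, was at 0 to 0.629 CPM in saline and 0.639 to 14.7 CPM in HDM samples and rose by 2.32 ± 0.52 (adjusted p = 0.00385). Ighg1 rose by 4.24 ± 0.88 (adjusted p = 0.00243), with saline values from 3.44 to 138 CPM and HDM values of 81.1, 339 and 1952 CPM. The mean log2 fold change of Ighg1 was 6.01 in male and 0.96 in female samples. Of 104 tested variable genes, which are alike in sequence, so that reads may be shared among them, 27 were higher and 0 lower. That number was 14 without saline replicate 1 and 2 with the 7SL share as a covariate.

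Of 11 tested neutrophil genes 0 were higher and 2 lower, and the median log2 fold change was −0.67. S100a8, a calcium-binding protein abundant in neutrophils, was at 15.6 to 47.9 CPM in saline and at 4.17, 10.6 and 39.9 CPM in HDM samples and fell by 1.26 ± 0.44 on the log2 scale (adjusted p = 0.0439). Mmp8, the neutrophil collagenase, fell by 1.32 ± 0.40 (adjusted p = 0.0228). The summed level of the list was 147 to 406 CPM in saline and 106 to 407 CPM in HDM samples, with the highest value in HDM replicate 7. Of the CXC and CX3C chemokine list 3 of 13 tested genes were higher and 1 lower, and of the list of IL-17 response and neutrophil recruitment 4 of 13 were higher. Cxcl1, which draws neutrophils, was at 0.940 to 1.93 CPM in saline and 2.44 to 7.99 CPM after HDM and rose by 1.43 ± 0.30 (adjusted p = 0.00262), and Cxcl5, which acts on the same receptor, rose by 1.78 ± 0.47 (adjusted p = 0.0106). Cxcl14, a chemokine of epithelium and fibroblasts, fell by 0.95 ± 0.24 on the log2 scale (adjusted p = 0.0073).

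Of the type I interferon list 3 of 20 tested genes were higher, Bst2, Mx1 and Oas1a, with log2 fold changes of 1.33, 1.24 and 1.15. The median of the list was 1.19 from the female and 0.02 from the male samples. HDM replicate 3, a male with a 7SL share of 34.0%, had a mean log2 level of 5.133. The HDM females were at 5.721 and 5.118, and the other HDM males at 3.88 to 4.426. With only the 2 HDM samples of low 7SL share, the females, against all saline samples, 12 of 20 were higher. With the 7SL share as a covariate 0 of 20 were. In female samples alone 0 of 20 were, where 7 of all 17742 genes passed. Of the interferon gamma list 4 of 17 were higher with all samples. There were 12 with those 2 HDM samples, 7 with the covariate and 0 in female samples alone. Nos2, the inducible nitric oxide synthase, was at 1.05 to 2.58 CPM in saline and at 3.09, 19.1 and 40.6 CPM after HDM and rose by 2.62 ± 0.44 (adjusted p = 0.00069). Iigp1, an interferon-induced GTPase, rose by 1.22 ± 0.37 (adjusted p = 0.0242), with means of 73.4 CPM in HDM males and 182 CPM in HDM females. In a fit with sex, 0 of 17742 genes had an HDM effect that differed between the sexes at an adjusted p under 0.05 (limma, smallest adjusted p = 0.271), and 1752 did at an unadjusted p under 0.05. That contrast rests on 2 saline and 2 HDM females, and the HDM females were also the HDM samples of low 7SL share. The 0 therefore does not show that the sexes respond alike. Of the 3847 called genes 3789 had the same sign in both sexes. The calls came from a fit of these same samples, so this count is no separate result.

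Cell division genes were higher in 4 of 29 tested (13.8%, near the 10.3% of all genes). A positive log2 fold change was seen in 28 of 29 (median 0.73). Bub1b, of the spindle checkpoint, rose by 1.07 ± 0.27 (adjusted p = 0.00838), and Mcm2, of the replicative helicase, by 0.91 ± 0.22 (adjusted p = 0.00627). The count was 13 without HDM replicate 2, whose mean log2 level of the list was 2.73 against 3.78 to 4.37 in the other HDM samples, and 16 with sex as a covariate.

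**Figure D3:**
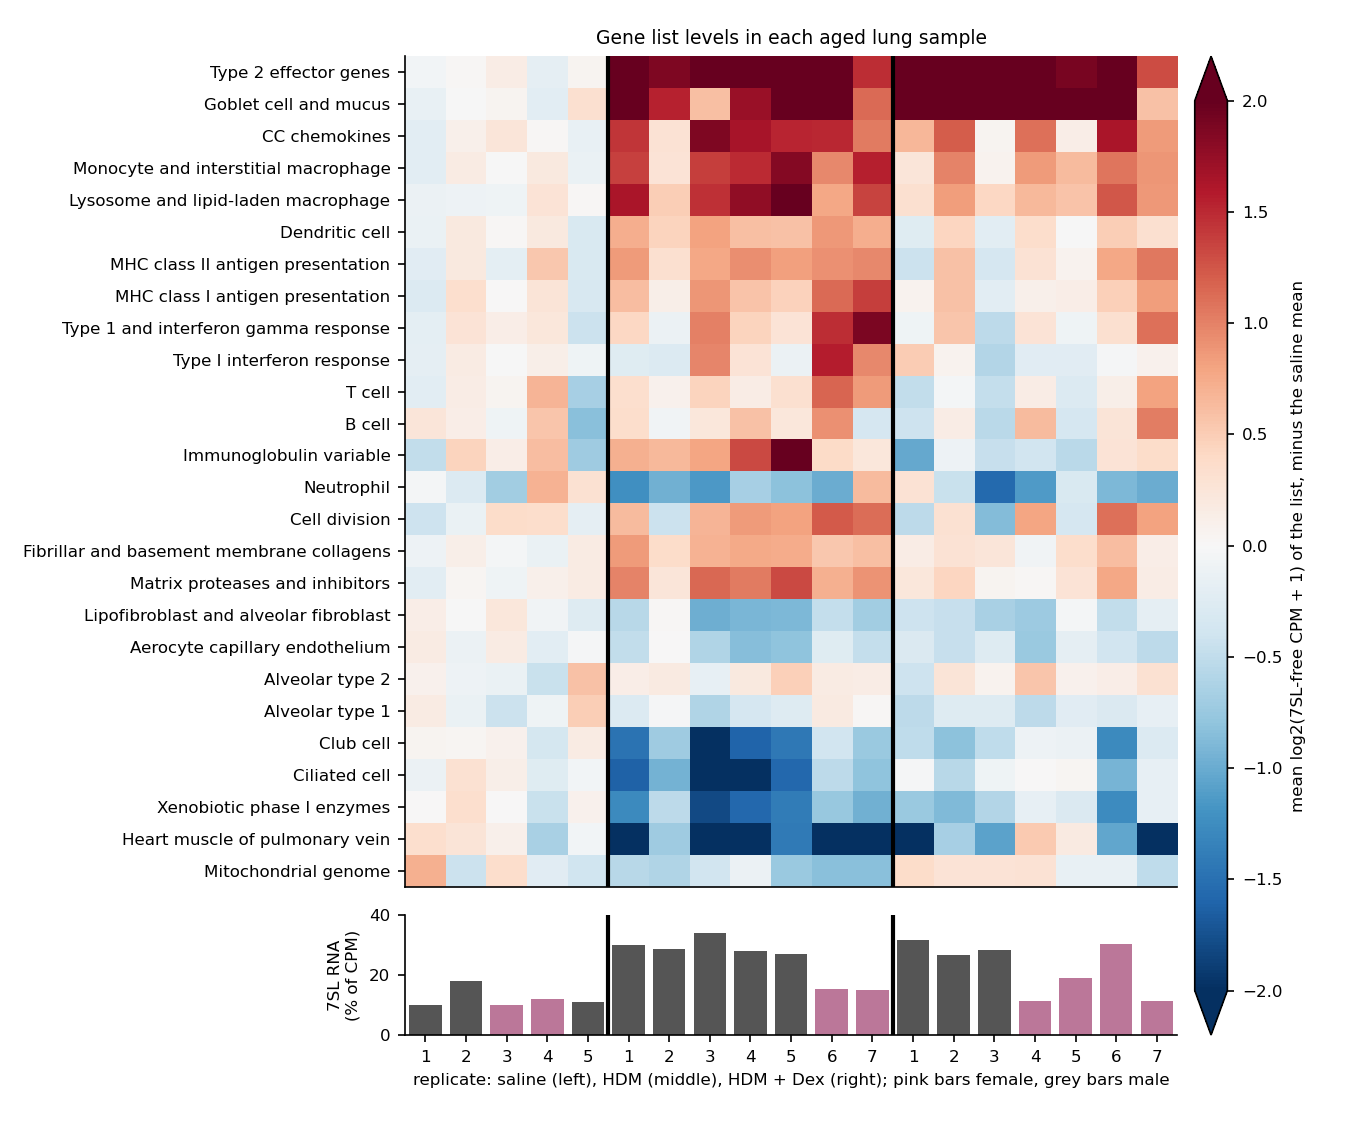
Mean log2 level of 26 gene lists in each aged sample, as the difference from the mean of the saline samples (colour, limited to −2 and 2), in saline, HDM and HDM + Dex samples by replicate number. Bars below give the 7SL RNA share of the deposited CPM in percent, with female samples in pink. HDM replicate 2 has the lowest level of the HDM samples in the monocyte, lysosome and MHC class II lists, and the interferon gamma list is highest in HDM replicates 6 and 7, which are female.

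Of the list of fibrillar and basement membrane collagens 13 of 19 tested genes were higher and 2 lower, and the median log2 fold change was 0.63 and 8 higher without overlap. Col3a1, a fibrillar collagen, was at 138, 184, 208, 252 and 272 CPM in saline and at 434, 1037 and 1180 CPM after HDM. It rose by 2.05 ± 0.24 (adjusted p = 5.47e-05), and no HDM sample was within the saline range. Col1a1 and Col1a2, the chains of type I collagen, rose by 1.82 ± 0.20 (adjusted p = 4.60e-05) and 1.49 ± 0.21 (adjusted p = 0.000184). Col5a2, which nucleates fibrils, rose by 1.85 ± 0.23 (adjusted p = 9.66e-05). Col6a5, a microfibrillar collagen, rose by 3.96 ± 0.94 (adjusted p = 0.00561) from 0.333 to 1.37 CPM in saline to 1.63, 66.7 and 131 CPM. Tnc, tenascin C of healing tissue, rose by 1.94 ± 0.29 (adjusted p = 0.000293), whereas elastin, Eln, had a log2 fold change of 0.60 (adjusted p = 0.186). The lower genes were Col4a6, a basement membrane chain, and Col12a1, which associates with fibrils, both named after their values were seen. In the fit with the 7SL share as a covariate 4 of 19 collagens were higher and 1 lower, and with only the 2 HDM samples of low 7SL share 4 and 0. The list medians were then 0.54 and 0.63.

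Of the matrix protease list 11 of 26 tested genes were higher and 2 lower (median 0.42). Timp1, an inhibitor of metalloproteinases, was at 0.805 to 3.05 CPM in saline and at 1.69, 22.9 and 58.3 CPM after HDM and rose by 3.06 ± 0.59 (adjusted p = 0.00141), with 1 HDM sample inside the saline range. Mmp13, a collagenase, rose by 2.90 ± 0.64 (adjusted p = 0.00363) from at most 0.513 CPM in saline. Of the profibrotic growth factor list 4 of 15 tested genes were higher and 0 lower (median 0.14, 5 negative). Tgfb1 was at 31.8 to 50.5 CPM in saline and at 56.4, 77.5 and 97.8 CPM after HDM and rose by 0.89 ± 0.14 (adjusted p = 0.000498). Inhba, the chain of activin A, rose by 2.31 ± 0.46 (adjusted p = 0.00179), and Igf1, a growth factor made by macrophages and fibroblasts, by 1.84 ± 0.36 (adjusted p = 0.00151). Both had no overlap between the groups.

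Of the lipofibroblast and alveolar fibroblast list 1 of 15 tested genes was higher and 7 lower (median −0.69), against 10 of 20 higher and 1 lower for matrix fibroblasts (median 0.62). The matrix fibroblast list shares Col1a1, Col1a2, Col3a1, Col5a2 and others with the collagen list, so that these counts are not separate results. Slc7a10, an amino acid carrier, was at 15.3 to 32.1 CPM in saline and at 1.51, 3.71 and 12.1 CPM after HDM and fell by 1.99 ± 0.36 on the log2 scale (adjusted p = 0.00106). Inmt, a methyltransferase abundant in these cells, was at 473 to 741 CPM in saline and 119 to 702 CPM in HDM samples and fell by 1.51 ± 0.33 (adjusted p = 0.00316), with only HDM replicate 2 inside the saline range. Itga8, an integrin of lipofibroblasts and myofibroblasts, fell by 1.17 ± 0.24 (adjusted p = 0.00212). In smooth muscle 0 of 13 tested genes were higher and 2 lower. Acta2, smooth muscle actin, had a log2 fold change of −0.03 ± 0.21 (adjusted p = 0.937), and Cnn1, calponin, fell by 0.79 ± 0.19 (adjusted p = 0.00644).

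Genes of both main cell types of the airway surface were lower. Of the club cell list 11 of 15 tested genes were lower and 0 higher (median −0.94), and of the ciliated cell list 24 of 25 were lower and 0 higher (median −1.36, against 11.4% of all genes lower), with 21 of the 25 lower without overlap. Scgb1a1, the main secreted protein of club cells, was at 4408 to 6109 CPM in saline and at 363, 1135 and 2725 CPM after HDM. It fell by 2.22 ± 0.44 on the log2 scale (adjusted p = 0.00182), and no HDM sample reached the saline range. Scgb3a2, a second secretoglobin, fell by 2.76 ± 0.51 (adjusted p = 0.00119), from 146 to 290 CPM in saline to a median of 18.3 CPM. Cyp2f2, the cytochrome P450 of club cells, was at 674 to 1161 CPM in saline and 46.8 to 426 CPM after HDM, and fell by 2.66 ± 0.51 (adjusted p = 0.00137). Scgb1a1 had a mean of 944 CPM in HDM males and 2343 CPM in HDM females, both below the lowest saline sample.

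Among ciliated cell genes, Dnah5, a dynein of the outer arm that was named after its values were seen, was at 118, 159, 164, 168 and 186 CPM in saline and at 25.6, 46.9 and 103 CPM after HDM. It fell by 1.57 ± 0.29 on the log2 scale (adjusted p = 0.00112). Ak7, an adenylate kinase of cilia, fell by 1.93 ± 0.42 (adjusted p = 0.00348). Ccdc40, which spaces dynein arms along the axoneme, fell by 1.77 ± 0.31 (adjusted p = 0.000899), and Cfap44, an axonemal protein, by 1.80 ± 0.30 (adjusted p = 0.00064). In all 4 of these genes the groups did not overlap. Foxj1, the transcription factor that sets up motile cilia, was the 1 gene of the list that did not pass, with 26.5 to 72.2 CPM in saline and 17 to 59.9 CPM in HDM samples (log2 fold change −0.63 ± 0.27, adjusted p = 0.103). The list median was −1.72 from the male and −0.64 from the female samples. With the 7SL share as a covariate 8 of the 25 ciliated genes and 1 of the 15 club cell genes were lower, and with only the 2 HDM samples of low 7SL share 2 and 1 were. Over all 17742 genes 358 and 196 were lower in these settings. The ciliated list medians were then −0.97 and −0.71, and the club cell medians −0.64 and −0.49.

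Enzymes that handle inhaled chemicals were lower as well. Of the phase I enzymes 20 of 26 tested were lower and 0 higher (median −1.12), and of the conjugating enzymes and paraoxonases 12 of 20 were lower and 1 higher (median −0.83). Pon1, a paraoxonase, was at 20.2 to 49.0 CPM in saline and at 0, 1.56 and 5.68 CPM after HDM and fell by 3.30 ± 0.50 on the log2 scale (adjusted p = 0.000334). Sult1d1, a sulfotransferase, was at 9.78 to 21.3 CPM in saline and at 0, 0.695 and 4.04 CPM after HDM and fell by 2.92 ± 0.44 (adjusted p = 0.000338). Cyp2a5, a cytochrome P450, fell by 2.54 ± 0.43 (adjusted p = 0.000732), and Aldh1a1, a retinal and aldehyde dehydrogenase, by 1.86 ± 0.29 (adjusted p = 0.000469). None of these 4 genes overlapped between the groups. Gstm1, a glutathione transferase, fell by 1.64 ± 0.26 (adjusted p = 0.000527). Cyp2f2 and Aldh1a1 are also on the club cell list. Taking the 7SL share as a covariate left 7 phase I and 5 conjugating enzymes lower, with list medians of −0.68 and −0.30.

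**Figure D4:**
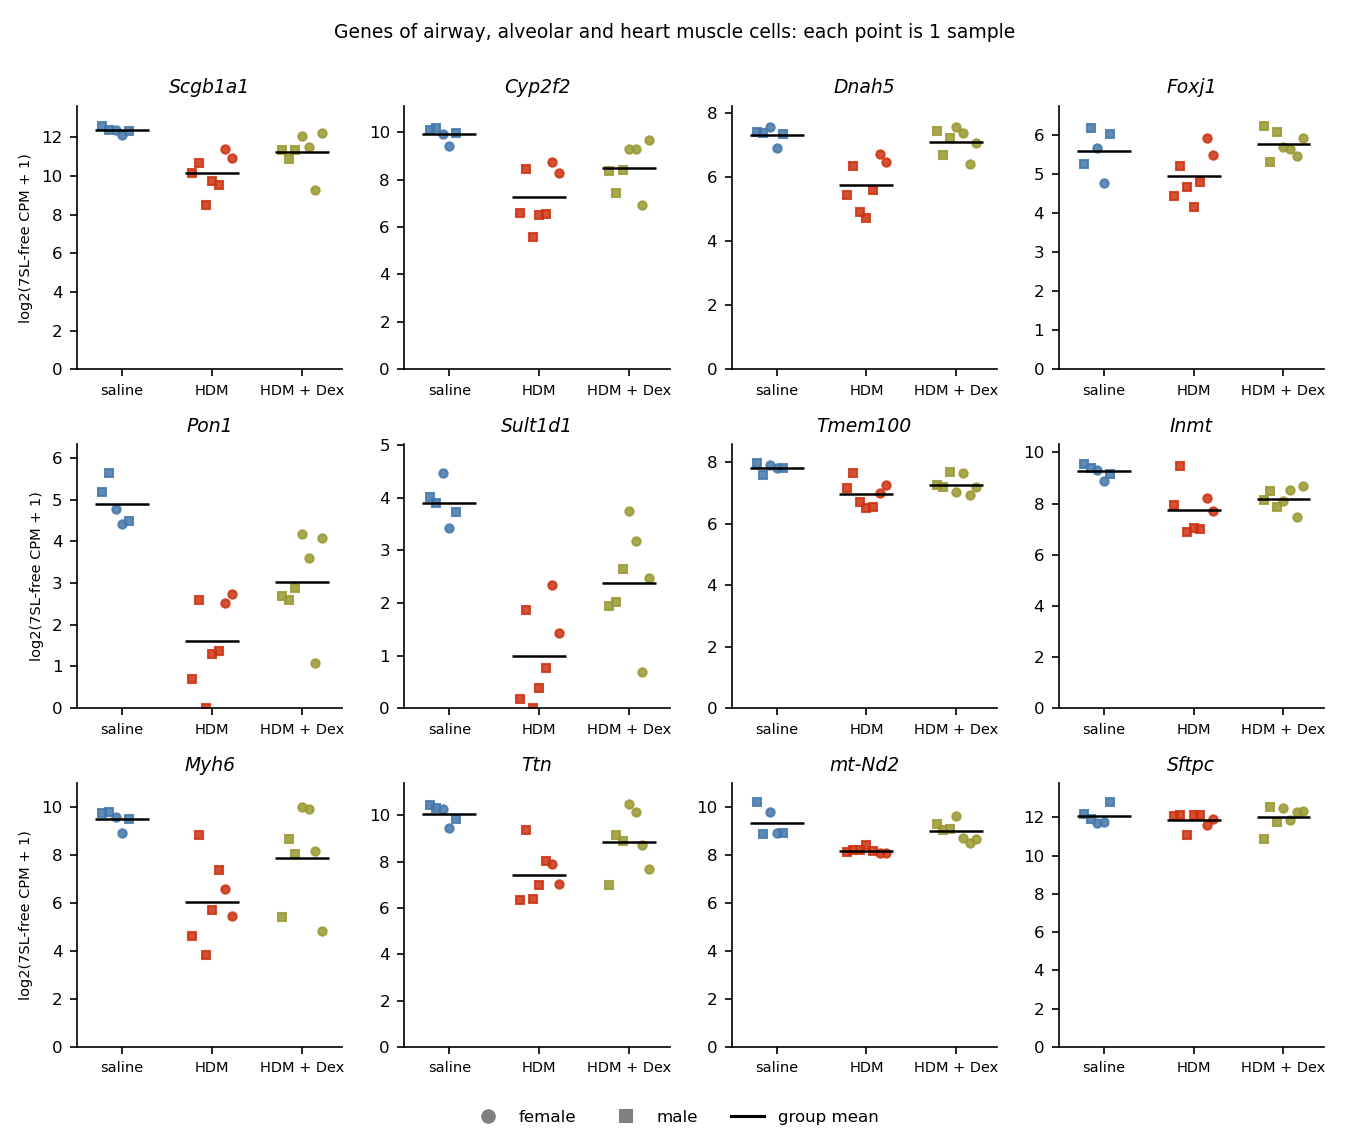
Levels of 12 genes of airway, alveolar and heart muscle cells and of mitochondria in saline (n = 5), HDM (n = 7) and HDM + Dex (n = 7) samples, as log2 of the 7SL-free CPM plus 1, with points, shapes and lines as for the rising genes. Scgb1a1 lies at 4408 to 6109 CPM in saline and at most 2725 CPM after HDM, whereas the groups overlap for Sftpc.

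Of the alveolar type 2 list 2 of 18 tested genes were higher (11.1%, near the 10.3% of all genes) and 0 lower. The median was −0.02, as over all genes. Sftpc, the surfactant protein that defines these cells, was at 3374 to 7258 CPM in saline and at 2128, 4223 and 4527 CPM after HDM (log2 fold change −0.22 ± 0.27, adjusted p = 0.589). The 2 that rose were Sftpd, a collectin that binds microbes (1.03 ± 0.21, adjusted p = 0.00234), and Chia1, a chitinase (2.60 ± 0.68, adjusted p = 0.0096). Of the type 1 list 1 of 14 was higher and 4 lower (median −0.30). Ager, a usual marker of these cells, did not pass (log2 fold change 0.02 ± 0.17, adjusted p = 0.952). Pdpn, podoplanin, rose by 0.76 ± 0.19 (adjusted p = 0.00752). Hopx, a cofactor of mature type 1 cells, fell by 0.59 ± 0.18 on the log2 scale (adjusted p = 0.0216), with a log2 fold change of −0.95 from male and 0.09 from female samples. Without saline replicate 1, 0 type 1 genes were lower. Of the list of transitional alveolar epithelium, 3 of 12 tested genes were higher, Lcn2, Tnip3 and Lgals3.

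Of the general capillary list 5 of 13 tested genes were lower, of the aerocyte list 4 of 12, and of the pan-endothelial list 3 of 16, with 0 higher in any of the 3 and medians of −0.27, −0.37 and −0.17. When the 7SL share was a covariate, 0 general capillary, 3 aerocyte and 0 pan-endothelial genes were lower. Tmem100, of the capillary endothelium, was at 191 to 250 CPM in saline and at 89.9, 127 and 199 CPM after HDM and fell by 0.85 ± 0.17 on the log2 scale (adjusted p = 0.00219). Ednrb, an endothelin receptor that marks aerocytes, fell by 1.06 ± 0.20 (adjusted p = 0.00157), and Ptprb, a phosphatase that acts on Tie2, by 0.66 ± 0.17 (adjusted p = 0.00769). Pecam1, which all endothelial cells carry, had a log2 fold change of −0.20 ± 0.10 (adjusted p = 0.142). Angpt1, the ligand of Tie2, fell by 1.13 ± 0.24 (adjusted p = 0.00283). Of the large vessel list 4 of 12 tested genes were higher and 2 lower. Bmx, a kinase of arterial endothelium, fell by 1.3 ± 0.29 (adjusted p = 0.00389). Among those that rose, Selp, which lets leukocytes roll, rose by 1.29 ± 0.38 (adjusted p = 0.0205), Ackr1, a chemokine scavenger of venules, by 1.04 ± 0.25 (adjusted p = 0.00638), and Icam1, which lets them adhere, by 0.60 ± 0.14 (adjusted p = 0.0053).

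Heart muscle genes fell furthest of the lists, which were chosen with earlier results of these data known. In mice, muscle of the atrial type sheathes the pulmonary veins into the lung. Of 22 tested genes 21 were lower and 0 higher, with a median log2 fold change of −2.36, and in 14 the groups did not overlap. Myh6, the atrial myosin heavy chain, was at 472, 719, 755, 860 and 887 CPM in saline and at 13.2, 50.6 and 457 CPM after HDM. It fell by 3.45 ± 0.83 on the log2 scale (adjusted p = 0.006), and the highest HDM value, that of replicate 2, was below the lowest saline value. Ttn, titin, fell by 2.62 ± 0.52 (adjusted p = 0.00192), Tnnt2, cardiac troponin T, by 2.69 ± 0.64 (adjusted p = 0.00532), and Myl4, the atrial light chain, by 2.90 ± 0.66 (adjusted p = 0.00408). The summed level of the list ran from 1537 to 2968 CPM in saline and from 174 to 1480 CPM in HDM samples. Its median was −2.40 from male and −2.23 from female samples. With the 7SL share as a covariate 4 genes were lower, and with only the 2 HDM samples of low 7SL share 8 were. The list medians were then −2.065 and −2.43. How much vein or heart tissue each piece of lung held was not measured.

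The RNA of the mitochondrial genome was lower as well. Of 15 tested genes 11 were lower and 0 higher (median −0.63), and the share of mitochondrial genes in the CPM without 7SL was 10.2% in saline and 7.01% in HDM samples (exact permutation test, two-sided, p = 0.00758, adjusted p = 0.0202 over 8 measures). mt-Nd2, a subunit of complex I, was at 473, 480, 484, 892 and 1178 CPM in saline and at 267, 285 and 338 CPM after HDM and fell by 1.17 ± 0.21 on the log2 scale (adjusted p = 0.000937). mt-Cytb, of complex III, fell by 0.87 ± 0.24 (adjusted p = 0.0124), with saline replicates 1 and 3 well above the others. Without saline replicate 1, 3 of the 15 were lower, and in male samples alone 1 was. Of the nuclear subunits of the same complexes, 9 of 80 tested were higher (11.25%, near the 10.3% of all genes) and 1 lower (median 0.12). The 1 lower gene was Cox8b, a muscle isoform, and Cox5b, of complex IV, rose by 0.73 ± 0.18 (adjusted p = 0.00737). The mitochondrial and heart muscle lists were both lower in HDM samples, and the part of heart muscle in the mitochondrial values was not tested.

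**Figure D5:**
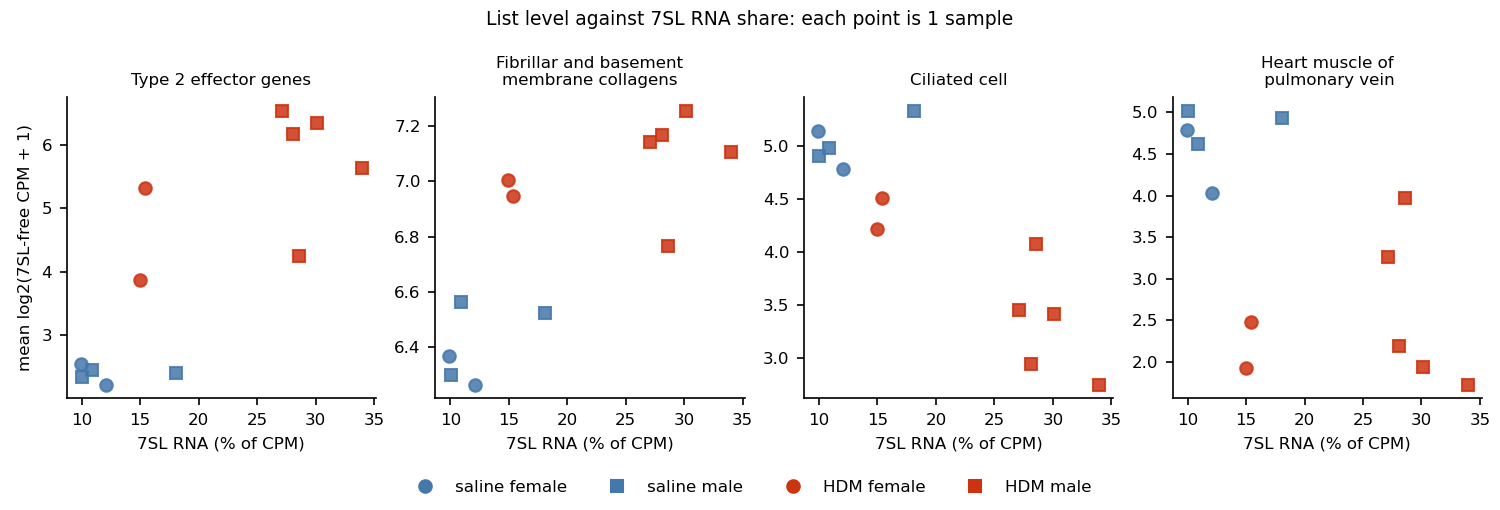
Mean log2 level of 4 gene lists against the 7SL RNA share of the deposited CPM in percent, in saline (blue) and HDM (red) samples, circles female and squares male. The 2 HDM females have 7SL shares of 15% and 15.4%, inside the saline range of 9.92% to 18.1%, and lie above all saline samples for type 2 genes and collagens and below them for ciliated and heart muscle genes.

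The same genes in the 7 samples given HDM and Dex are set beside these values. Both comparisons use the same saline samples, so their likeness is no separate result. By Xist and Ddx3y, 4 of the 7 HDM + Dex samples were female, against 2 of the 7 HDM samples. The 7SL share of the HDM + Dex samples was 11.3% to 31.6%. The part of sex and 7SL share in the differences between HDM + Dex and HDM was not tested. Against saline, 180 genes passed with Dex (1.01% of those tested), and 444 (2.50%) differed between HDM + Dex and HDM. Clca1 was at 31.7, 654 and 1044 CPM with Dex and was higher than in saline by 8.09 on the log2 scale (adjusted p = 3.16e-05). Retnla was at 112, 454 and 1546 CPM (log2 fold change 6.13 against saline, adjusted p = 0.000112). For Clca1, Retnla and Slc26a4 the difference between HDM + Dex and HDM did not pass (adjusted p = 0.265, 0.947 and 0.982). Among collagens Col3a1 was at 340, 398 and 811 CPM and differed by −0.95 from HDM (adjusted p = 0.0304), and Col1a1 by −0.90 (adjusted p = 0.0192). Igha was at 15.4 to 81.7 CPM and differed by −1.78 from HDM (adjusted p = 0.0189), and Nos2 by −1.79 (adjusted p = 0.0272). Among ciliated genes Dnah5 was at 84.5, 148 and 188 CPM, 1.37 higher than with HDM (adjusted p = 0.0178). Median log2 differences between HDM + Dex and saline were 2.48 for the type 2 list, 1.62 for the goblet list, 0.24 for collagens, −0.26 for ciliated cells and −0.99 for heart muscle.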

How the data were processed

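Bulk RNA-seq of the left lung lobe was measured in 24 samples, of which the 5 saline, 7 HDM and 7 HDM + Dex samples of 80 wk mice entered the fit. The labels give the age as 80 wk and the study's methods as up to 82 wk. Per the study's methods, libraries were stranded, made from mRNA and read from both ends, and the authors used Picard, STAR and limma. The submitters' processing notes list mm9, FastQC, STAR and DESeq2, whereas 23142 of 23276 gene symbols found in the annotation start at the same base of GRCm38. The authors deposited a table of CPM, counts scaled to a common total in each sample, of 23891 genes, to which a constant of 0.0001 had been added, which was subtracted. Depth was not recoverable as whole reads, so no count model was used.

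CPM were recomputed per sample without Rn7s1 and Rn7s2, the 2 genes of 7SL RNA. The 17742 genes with a mean deposited CPM of at least 1 over the 24 samples were tested on log2(CPM + 1) with limma 3.58.1 in R 4.3.3 (eBayes with trend, 19 samples, contrast HDM minus saline), with p-values adjusted by the Benjamini-Hochberg method and a threshold of 0.05. A fold change on this scale understates that of low genes. In data simulated on these genes with 7SL left out, 81 of 100 genes changed 2-fold and 97 of 100 changed 3-fold were recovered, with 12 other calls. The simulation drew each gene independently and gave all samples of a group the same 7SL share. It holds no differences between samples that many genes share, so its number of other calls does not carry over to these data. Other steps used Python 3.11.15, numpy 2.4.6, pandas 2.3.3 and matplotlib 3.10.9. Sex was read from Xist and Ddx3y.

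Genes were named by rule. These were the 12 largest rises and 12 largest falls without overlap, up to 4 called genes with the largest change on each of 74 lists, and genes that define a cell type or pathway. Lamp1, Lamp2, Ighm, Eln, Postn, Tff2, Dnah5, Pdcd1lg2, Ccl17, Col4a6 and Col12a1 fall outside this rule and were chosen after their values were seen. The members and the lists were chosen with earlier results of these data known. Alternatives covered scaling, pseudocount, filters, samples and covariates, and leaving out each replicate. The list counts under other settings and the test of sex by HDM were added after the data were seen. Another deposited file without measurements was not used.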

Additional observations from a re-analysis of the deposited data

Results flagged for a closer look

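In groups of 5 or 7 samples, 1 sample lay far from all others, by the gap to its neighbour relative to the range of the group, in 14 of 160 groups of samples and measures tested (74 gene lists and 6 sample measures in 2 groups). Chance alone flags about 1 in 20 such groups, here 8.

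The 7SL share of saline replicate 2 was 18.11%, against 9.92% to 12.1% in the other saline samples. HDM replicate 3 had 3275 genes at 0, against 398 to 1485 in the other HDM samples.

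List levels are means of log2(7SL-free CPM + 1). HDM replicate 2 was below the other HDM samples in 4 lists. Its level was 6.039 for MHC class II (others 6.48 to 6.68), 2.728 for cell division (others 3.78 to 4.37), 5.347 for profibrotic growth factors (others 5.78 to 6.03) and 4.242 for arginine and polyamine metabolism (others 4.92 to 5.37).

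HDM replicate 7 was above the others for neutrophil genes, at 4.658 (others 2.80 to 3.38), and for platelet genes, at 3.696 (others 2.60 to 3.05). HDM replicate 3 was low for epithelial ion transport, at 5.162 (others 5.73 to 6.05). HDM replicate 6 was high for cholesterol synthesis, at 5.107 (others 4.73 to 4.89).

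Among saline samples, replicate 4 was low for club cell genes, at 6.881 (others 7.27 to 7.39). Replicate 1 was low for the germinal centre list, at 3.87 (others 4.10 to 4.18), and for histone genes, at 1.958 (others 2.70 to 2.97). Replicate 5 was high for secreted antimicrobial genes, at 5.619 (others 4.81 to 4.97).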

How the results depend on the processing

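In CPM as deposited, with 7SL kept in, 718 genes were higher and 3771 lower. With the 7SL share as a covariate 1402 genes passed (1044 higher, 358 lower), and with only the 2 HDM samples of a 7SL share below 25%, 810 did (614 higher, 196 lower). In males only 2531 genes passed (1102 higher), and 3337 had no overlap between the groups. In females only, 2 against 2, 7 passed (5 higher, 2 lower) and 9938 had no overlap. The fewer the samples, the more genes lack overlap by chance. The counts without overlap in males and in females are therefore not comparable with the 1313 of all samples. At an adjusted p under 0.01, 1769 genes passed (845 higher, 924 lower), and 994 had an absolute log2 fold change of at least 1 (449 higher, 545 lower). Leaving out 1 replicate at a time gave 2515 to 4551 genes in all, 1120 to 2193 higher and 1353 to 2358 lower, and 1371 to 2361 without overlap. The lowest counts in all and of higher genes came without saline replicate 1, and the highest without HDM replicate 2. Genes without overlap numbered 1985 without saline replicate 4. The other settings of scaling, pseudocount, filter and fit kept each count within 1.5 times. The cause of these differences was not tested.

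Of the 137 genes named, 117 were called. Of these 54 lost the call with the 7SL share as a covariate, 58 with only the HDM samples of low 7SL share, 17 in males only, 115 in females only and 10 in CPM as deposited. Hopx turned its direction in females only (log2 fold change 0.094). In 15 of the 117 the call was lost when some 1 replicate was left out. These were Adipoq, Ccl8, Ccr3, Ciita, Fcer2a, Hopx, Icos, Iigp1, Il33, Il4ra, Mmp8, mt-Cytb, Pdcd1, S100a8 and Selp, of which Ccl8, Ciita, mt-Cytb, Pdcd1 and Selp lost it only without saline replicate 1.

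Saline and HDM samples share replicate numbers in the labels. The deviations of same-numbered samples from their group means correlated at −0.01, 0.04, −0.09, 0.30 and 0.01. Those of differently numbered samples correlated at −0.20 to 0.18. So few same-numbered pairs cannot decide whether the numbers pair the samples, and the labels do not say. With the replicate number as a block (replicate block), 3155 genes passed (1373 higher, 1782 lower). 3 reads were worth up to 0.298 CPM, and differences below that level were not detectable at this depth.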
